A study of Oryza sativa with 6 samples.

Results

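Cyclins, cyclin-dependent kinases (CDKs), the KRP inhibitors of these kinases and the kinesins of rice were followed in leaves that express *OsMADS29* ectopically. The members are all genes of a current rice gene table whose symbol or synonym names a cyclin (CYC), a CDK, a KRP or a kinesin (KIN), which gave 29 cyclin, 14 CDK, 6 KRP and 35 kinesin genes, 84 of the 39387 genes listed. Another 3 genes carry a CYC name but encode terpene cyclases or a ribosomal protein, and were left out. A probe set that the platform annotation pairs with 1 gene was found for 72 of the 84 members, out of 17905 genes with such a probe set. A gene took its brightest probe set by the mean of the 6 arrays. The 12 members not measured here are *CYCA3-1*, *CYCB1-5*, *CYCD2-1*, *CYCT1-1*, *CDKB1-1*, *CDKC-2*, *CDKF-2*, *KRP2*, *KRP3*, *KIN12F*, *KIN14D* and *KIN14P*.

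Leaf RNA came from rice (*Oryza sativa* subsp. indica) var. PB1, with 3 wild-type (WT) and 3 MADS29OX samples, 1 Affymetrix array each, taken from the third and the fourth leaf counted from the flag leaf. MADS29OX plants carry the *OsMADS29* cDNA behind a ubiquitin promoter, which is active in most tissues, and were selected as transformants on hygromycin. WT plants carry no construct, and no transformed control without *OsMADS29* was analysed here. Plant age and time of harvest are not stated in the sources. The study describes MADS29OX plants as severely stunted and early in flowering, so leaves counted from the flag leaf may differ in age between the groups. The labels number the samples as replicates without saying whether they are separate plants or lines, so p-values measure the spread between these samples.

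Cyclins bind and activate CDKs. In plants, D-type cyclins with CDKA act at entry into the cell cycle, A-type cyclins in DNA synthesis and B-type cyclins with CDKA and CDKB at mitosis, while KRP proteins bind and inhibit these complexes. The C, H, L and T cyclins and their CDK partners act mainly on RNA polymerase II, on splicing and on the activation of other CDKs. Kinesins are motors that move along microtubules and serve the spindle, the phragmoplast (the structure that builds the new wall of a dividing plant cell) and the cortical microtubules that guide wall deposition in elongating cells. In a grass leaf, dividing cells lie mainly in the intercalary meristem at the leaf base, and the blade beyond it has largely stopped dividing. The study reports fewer undifferentiated cells in this meristem of MADS29OX plants. Whether this or leaf age has a part in the values below was not tested.

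Each value deposited is the linear intensity of a probe set and is called a signal here. Signals below 16 were raised to 16 before log2 was taken, so the changes of weak genes are understated. A gene was called where MADS29OX and WT differed at least 2-fold and limma gave an adjusted p (Benjamini-Hochberg, over all tested probe sets) of no more than 0.05. Log2 ratios are of MADS29OX to WT, with their standard error (SE). Array medians lay between 5.951 and 5.997, and log2 values correlated across probe sets at 0.992 to 0.997 among WT arrays and at 0.936 to 0.969 among MADS29OX arrays. The *OsMADS29* probe set read 6.70, 6.37 and 6.64 in WT and 2016, 1788 and 3590 in MADS29OX leaves, which matches the group labels. Leaf photosynthesis markers were above 16 for 8 of 9 genes on every array, with summed signals of 28364 to 29550 in WT and 38095 to 49089 in MADS29OX leaves. The genes in this sum did not move together. Of the 8 tested, 3 were called higher, *LIR1* most (log2 ratio of 4.72), and 1, *OsPSAG*, was called lower (-1.05). Of all genes tested, 5.05% were called higher and 5.03% lower. The 4 shoot meristem genes of the *OSH* family and both root markers were under 16 on all arrays. Of 9 endosperm and 8 floral organ genes, 7 and 6 were under 16 on all arrays. Summed signals were 272 to 279 in WT and 223 to 258 in MADS29OX leaves for the endosperm list, and 112 to 116 and 70.6 to 86.2 for the floral list. Of the floral genes above 16 on an array, *MADS16* was called lower (log2 ratio of -1.23). The other, *MADS2*, was not called and went the other way, from 11.2 to 11.7 in WT to 14.2 to 24.5 in MADS29OX leaves. Whether these shifts have a part in the values below was not tested. In bulk leaf RNA, fewer cells of a type and less RNA per cell cannot be told apart.

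Most members gave no signal above 16 in either group. Of the 72 members with a probe set, 47 (65.3%) stayed under 16 on all 6 arrays, against 43.9% of the 17905 genes. The number of members at or above 16 was 24, 22 and 22 on the WT arrays and 23, 23 and 22 on the MADS29OX arrays, so the groups overlapped. The 47 genes comprise 17 of 25 cyclins, 3 of 11 CDKs, 2 of 4 KRPs and 25 of 32 kinesins. A signal under 16 is close to the level of most probe sets on these arrays, and does not show that the transcript is absent.

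The share under 16 differed between classes. Of the 16 A-, B- and D-type cyclin genes with a probe set, 14 were under 16 on all arrays. These included all 4 B-type cyclins, *CYCB1-1*, *CYCB1-3*, *CYCB2-1* and *CYCB2-2*, and 8 of 9 D-type cyclins. The mitotic kinase gene *CDKB2-1* had signals of 5.55 to 5.57 on the 6 arrays. By contrast, 0 of the 5 C, H, L and T cyclin genes and 0 of the 8 genes of *CDKC* to *CDKG* were under 16 on all arrays. Of the kinesins, the genes under 16 on all arrays included *KIN5A* and *KIN5C* of the spindle motor family, *KIN7A* (NACK, which acts in cytokinesis), *KIN12C* and *KIN12E*, *KIN10A* (STD1), *KIN14I* (KCBP, which binds calmodulin) and *KIN14Q* (KCH1, which binds actin). The plot of signals by class shows this split.

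**Figure D1:**
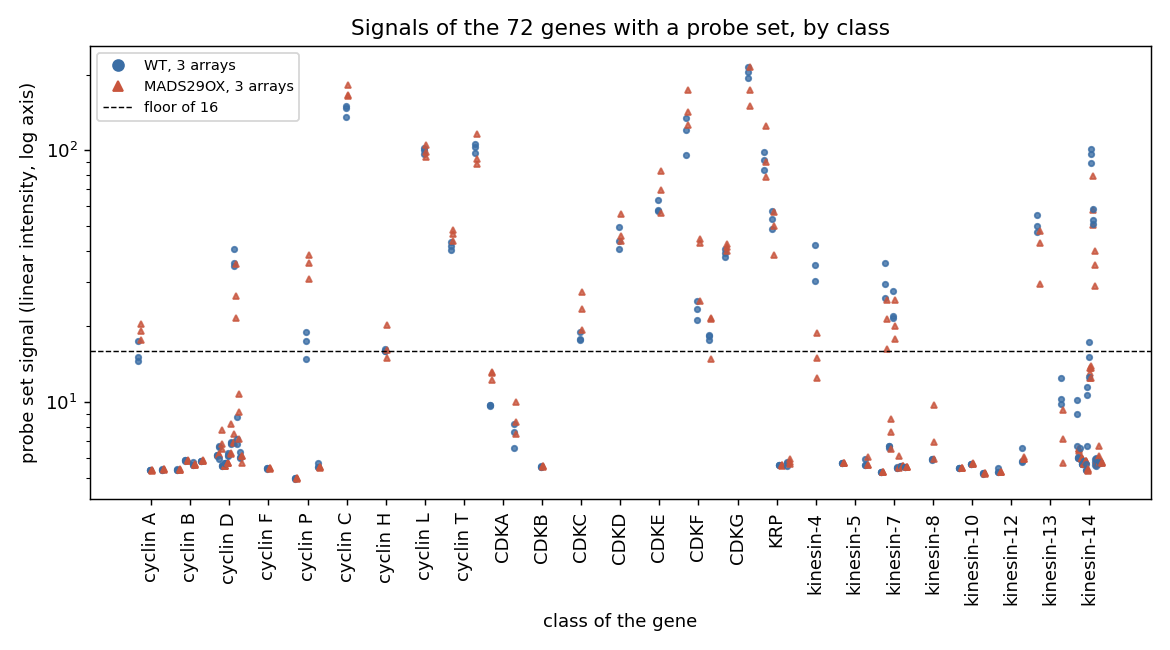
Signals (linear intensity, log axis) of the 72 genes with a probe set, by class on the horizontal axis; each gene has 3 WT points (circles) and 3 MADS29OX points (triangles), and the dashed line is the floor of 16. All points of the B-type cyclins, CDKA and CDKB lie under the line, while each gene of the C, H, L and T cyclins and of CDKC to CDKG has at least 1 point above it.

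Within the 47 genes, 38 had no signal of 8 or more on any array, and the highest signal was 13.7, for *KIN14I*. This gene had signals of 10.7, 6.70 and 11.5 in WT and of 13.7, 12.5 and 13.01 in MADS29OX leaves, all below the floor, while *KIN14K*, with a highest signal of 17.4, was the tested member nearest above it. *CDKA-1*, the main kinase of the cell cycle in plants, had signals of 9.74, 9.74 and 9.62 in WT and of 12.3, 13.1 and 13.1 in MADS29OX leaves. The 3 MADS29OX arrays were above all WT arrays, though the whole range lies under 16. Both groups are thus too low for a fold change here. The probe set of *CDKA-1* ends in _s_at, a type that can detect related transcripts, and its other probe set had signals of 5.79 to 5.86. *CDKA-2* had signals of 8.22, 6.59 and 7.61 in WT and of 7.48, 9.99 and 8.32 in MADS29OX leaves, which overlap.

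For the 25 members above 16 on at least 1 array, 0 genes were called higher and 1 gene, *KIN4A*, was called lower by limma. Over all 10045 genes tested, 10.1% were called, 5.05% higher and 5.03% lower, so the members' calls were at or below that background. By p before adjustment (under 0.05, any fold), 4 members were higher and 4 were lower, against 17.0% and 21.9% of all genes tested (38.9% in either direction). With an adjusted p of at most 0.05 and no fold limit, 1 member was higher (*CYCP3-1*) and 3 were lower (*KIN4A*, *KIN14M* and *KIN14L*), against 26.6% of all genes in either direction. The groups did not overlap for 9 members, 5 of them higher and 4 lower in MADS29OX leaves, against 50.1% of all genes. The median log2 ratio was 0.07 over the 25 members and -0.01 over all genes tested. By class it was 0.13 for 8 cyclins, 0.16 for 8 CDKs, -0.04 for 2 KRPs and -0.54 for 7 kinesins. All 7 kinesins had a negative fold change, against 51.3% of all genes tested. The members were chosen with earlier results of these data known, and nothing particular to them is drawn from these counts. Their spread was wider in MADS29OX than in WT leaves for 21 of 25 genes, with a median SD of log2 values of 0.23 and 0.087. Over the 9302 probe sets with a mean of at least 32 it was 0.25 and 0.082, so the wider spread was not particular to the members.

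**Figure D2:**
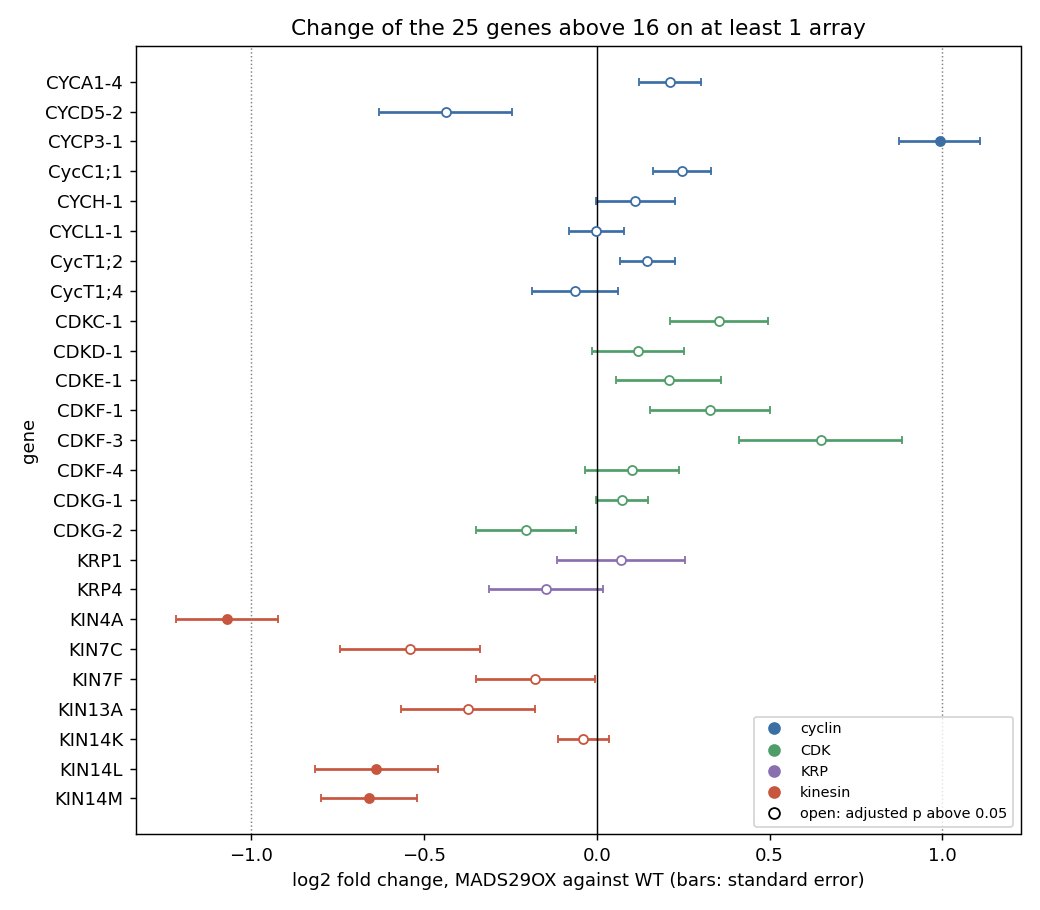
Log2 fold change of MADS29OX against WT leaves on the horizontal axis (points, with SEs from limma as bars) for the 25 genes above 16 on at least 1 array, coloured by class; filled points have an adjusted p of at most 0.05 and dotted lines mark a 2-fold change. All 7 kinesins lie left of 0, from -0.04 to -1.07, and *CYCP3-1* lies at 0.99, just inside the 2-fold line.

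The kinesin gene *KIN4A* was lower in MADS29OX leaves. The gene table also lists it as BC2 and GDD1, its rice mutants are dwarf with brittle culms, and its product is a kinesin-4 motor needed for ordered cellulose microfibrils and cell elongation. Its signals were 30.2, 35.0 and 42.2 in WT and 15.02, 18.8 and 12.4 in MADS29OX leaves. The groups did not overlap, and 2 of the 3 MADS29OX arrays were under the floor, so the fold is set in part by it. The log2 ratio was -1.07 (SE 0.15, limma adjusted p = 0.00497), a 2.10-fold decrease. Without the floor, over the same probe sets, it was -1.22 (adjusted p = 0.00511). It was no longer called when 16 was added to each signal in place of the floor (adjusted p = 0.0730), when probe sets at the floor were tested too (adjusted p = 0.0951), with no floor over all probe sets (adjusted p = 0.0655), and without WT replicate 3, where the change of -0.95 stayed under 2-fold.

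Among the kinesin-14 genes, which encode motors that move toward the minus end of microtubules, *KIN14M* and *KIN14L* passed the adjusted p below the 2-fold limit. *KIN14M* had signals of 52.9, 51.0 and 58.7 in WT and of 39.8, 28.9 and 35.0 in MADS29OX leaves. Its log2 ratio was -0.66 (SE 0.14, limma adjusted p = 0.0201). *KIN14L* had signals of 89.5, 96.4 and 100.9 in WT and of 50.4, 79.2 and 57.9 in MADS29OX leaves. In both genes every MADS29OX array was below every WT array, and *KIN14L* varied more among the MADS29OX arrays. The log2 ratio of *KIN14L* was -0.64 (SE 0.18, limma adjusted p = 0.0472). Leaving out 1 array moved the adjusted p to between 0.0125 and 0.0821 for *KIN14M*, above 0.05 without any of the WT arrays or MADS29OX replicate 3, and to between 0.00372 and 0.151 for *KIN14L*, above 0.05 in every case but that without MADS29OX replicate 2. *KIN14K* was near the floor, with signals of 12.6, 15.2 and 17.4 in WT and of 12.5, 13.99 and 13.6 in MADS29OX leaves, and gave a log2 ratio of -0.04.

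The remaining kinesins did not pass the test with their brightest probe set. *KIN7C*, of the kinesin-7 family to which the cytokinesis motor NACK belongs, had signals of 29.6, 26.0 and 35.8 in WT and of 25.6, 21.4 and 16.3 in MADS29OX leaves. The groups did not overlap, but the lowest WT and the highest MADS29OX signal were close (log2 ratio of -0.54, SE 0.20, limma adjusted p = 0.107). *KIN7F* of the same family had 21.6, 22.1 and 27.7 in WT and 25.6, 17.8 and 20.02 in MADS29OX leaves, which overlap (log2 ratio of -0.18, limma adjusted p = 0.489).

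*KIN13A* is the gene of the small and round seed mutant srs3 and encodes a kinesin-13. With its brightest probe set the signals were 50.2, 55.4 and 47.4 in WT and 42.9, 29.5 and 48.0 in MADS29OX leaves, with a log2 ratio of -0.37 (SE 0.20, limma adjusted p = 0.219). Its other probe set gave 41.9, 37.6 and 45.5 in WT and 31.8, 28.9 and 27.7 in MADS29OX leaves. In that probe set the groups did not overlap, and the log2 ratio of -0.50 (SE 0.11) passed the adjusted p (limma adjusted p = 0.0202) but not the fold limit. The mean of both probe sets had -0.44 (adjusted p = 0.0371). Of the kinesins under 16, *KIN13B* had signals of 9.88, 12.5 and 10.3 in WT and of 5.75, 9.36 and 7.16 in MADS29OX leaves, too low for a fold change here.

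**Figure D3:**
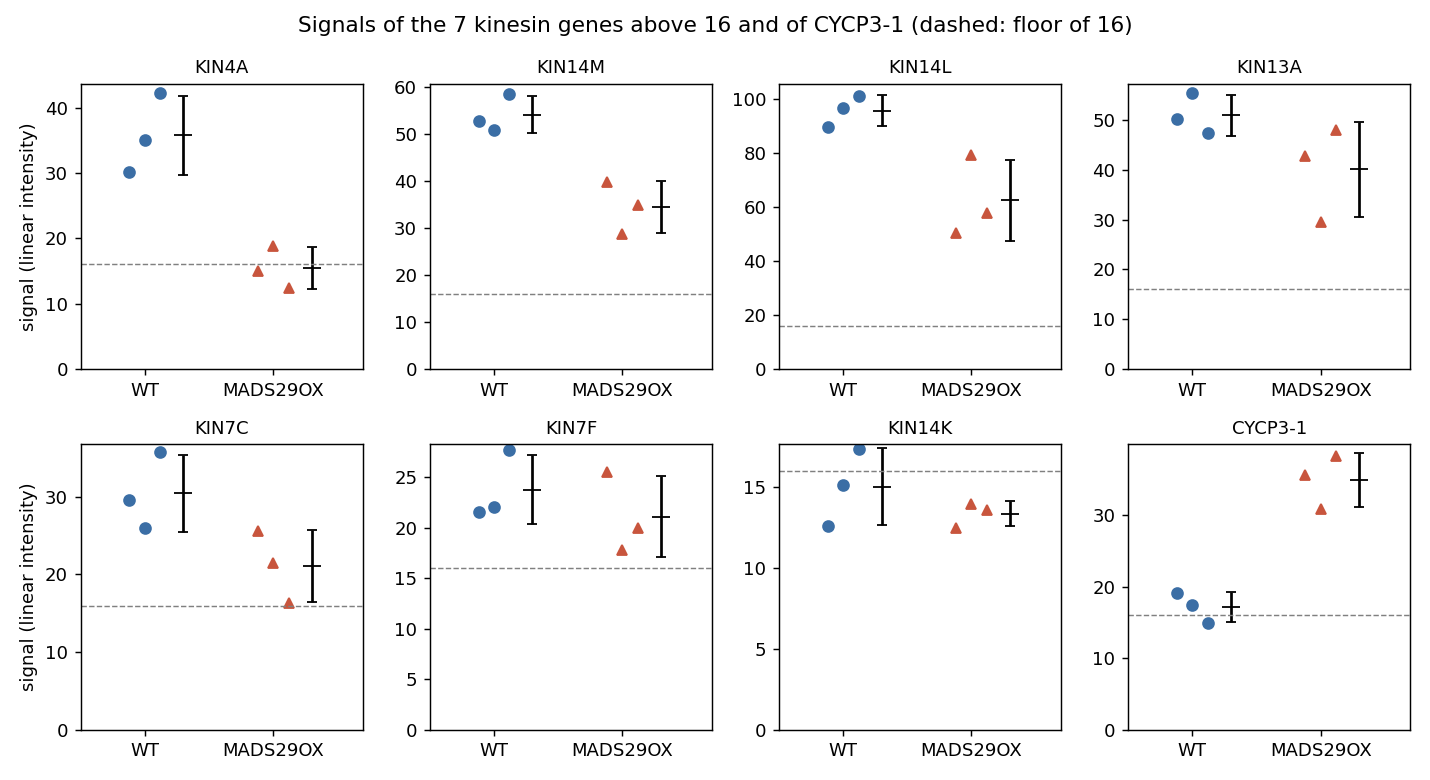
Signals (linear intensity, vertical axis from 0) of the 7 kinesin genes above 16 and of *CYCP3-1* on each of 3 WT arrays (circles) and 3 MADS29OX arrays (triangles), with the mean and SD beside each group and the floor of 16 dashed. *KIN4A* goes from 30.2 to 42.2 in WT to 12.4 to 18.8 in MADS29OX leaves, and *CYCP3-1* from 14.9 to 19.1 to 30.8 to 38.3.

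Of the cyclins, *CYCP3-1* was nearest to a call. P-type cyclins resemble the yeast PHO80 cyclin of phosphate signalling. Its signals were 19.1, 17.5 and 14.9 in WT, 1 of them under the floor, and 35.6, 30.8 and 38.3 in MADS29OX leaves. Every MADS29OX array was above every WT array, with a log2 ratio of 0.99 (SE 0.12, limma adjusted p = 0.00300), a 1.99-fold increase that lies just under the fold limit. With no floor it was 1.03 (adjusted p = 0.00324) and with quantile normalization 1.00, both of which pass the limit. The other P-type genes, *CYCP2-1* and *CYCP4-1*, had highest signals of 4.997 and 5.74.

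*CYCA1-4* and *CYCD5-2* were the A- and D-type cyclins above 16. *CYCD5-2* had signals of 34.8, 35.7 and 40.7 in WT and of 35.5, 21.7 and 26.5 in MADS29OX leaves. MADS29OX replicate 1 lay within the WT range and the other MADS29OX arrays below it (log2 ratio of -0.44, SE 0.19, limma adjusted p = 0.155). With 1 array left out in turn, the log2 ratio of *CYCD5-2* ran from -0.63 to -0.27. The limma adjusted p ran from 0.0247, without MADS29OX replicate 1, to 0.360. *CYCA1-4* stayed close to the floor, with 17.5, 15.1 and 14.6 in WT and 17.7, 20.4 and 19.2 in MADS29OX leaves (log2 ratio of 0.21, adjusted p = 0.146). No value of either gene passed the test on all 6 arrays.

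The cyclins and CDKs that act on transcription can be read as partners. *CycC1;1* and *CDKE-1* belong to the kinase module of Mediator, which links regulators to RNA polymerase II. *CycC1;1* had signals of 147.5, 149.95 and 136 in WT and of 165, 166 and 182 in MADS29OX leaves. The groups did not overlap (log2 ratio of 0.25, SE 0.08, limma adjusted p = 0.0864), and its other probe set had a log2 ratio of 0.22 (adjusted p = 0.102). *CDKE-1* had 57.3, 63.6 and 57.95 in WT and 82.6, 69.9 and 56.3 in MADS29OX leaves, where MADS29OX replicate 3 was the lowest of all 6 arrays (log2 ratio of 0.21, SE 0.15, adjusted p = 0.373).

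The other probe set of *CDKE-1*, singled out after its values were seen like that of *KIN13A*, gave other values. It had signals of 6.61, 6.65 and 6.56 in WT and of 28.01, 30.9 and 33.97 in MADS29OX leaves. All WT arrays were under the floor and were raised to it, so the gene was at least 1.93-fold higher by this probe set. The WT values in the model thus had no spread, and the limma adjusted p of 0.00170 does not measure the spread between WT samples. As the probe set was also singled out after its values were seen, no call is drawn from this p. As the mean of both probe sets *CDKE-1* had a log2 ratio of 0.58 (limma adjusted p = 0.00433), under 2-fold. This mean includes the same WT values at the floor, so its p has the same limit. The groups thus overlapped by 1 probe set of this gene and not by the other, and which part of the transcript each detects was not analysed here.

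**Figure D4:**
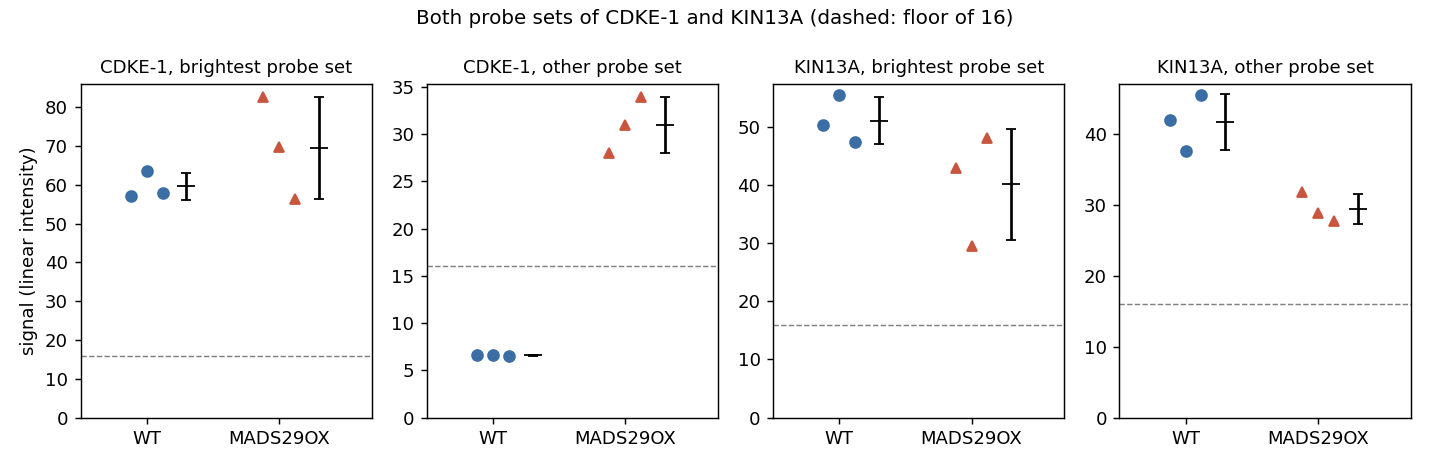
Signals (linear intensity, vertical axis from 0) of both probe sets of *CDKE-1* and *KIN13A* on 3 WT arrays (circles) and 3 MADS29OX arrays (triangles), with the mean and SD beside each group and the floor of 16 dashed. The other probe set of *CDKE-1* has WT signals of 6.56 to 6.65 and MADS29OX signals of 28.01 to 33.97, while its brightest probe set has groups that overlap.

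*CYCH-1* and *CDKD-1* (R2) form the CDK-activating kinase, which phosphorylates other CDKs and RNA polymerase II. *CYCH-1* had signals of 16.2, 15.9 and 15.9 in WT and of 20.3, 14.98 and 16.1 in MADS29OX leaves, and *CDKD-1* had 40.6, 43.6 and 49.4 in WT and 56.0, 43.7 and 45.7 in MADS29OX leaves. Both partners overlapped between the groups, with log2 ratios of 0.11 (limma adjusted p = 0.517) and 0.12 (adjusted p = 0.548). T-type cyclins pair with CDKC in the kinase that releases paused RNA polymerase II. *CDKC-1* had signals of 17.9, 17.6 and 19.0 in WT and of 23.5, 27.5 and 19.3 in MADS29OX leaves, which did not overlap (log2 ratio of 0.35, SE 0.14, adjusted p = 0.126). With 1 array left out in turn, *CDKC-1* had log2 ratios of 0.23 to 0.48. The limma adjusted p ran from 0.0367, without MADS29OX replicate 3, the lowest of its group, to 0.289. *CycT1;2* and *CycT1;4* had log2 ratios of 0.15 (adjusted p = 0.235) and -0.06 (adjusted p = 0.738).

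CDKG kinases act with L-type cyclins in splicing in Arabidopsis. *CYCL1-1* had signals of 101.8, 96.5 and 100.2 in WT and of 94.2, 105 and 98.8 in MADS29OX leaves. The mean was 99.5 in both groups, with an SD of 2.75 in WT and of 5.62 in MADS29OX leaves (n = 3). *CDKG-1* had a log2 ratio of 0.07 (SE 0.07, limma adjusted p = 0.515) and *CDKG-2* one of -0.20 (SE 0.14, adjusted p = 0.354).

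The 3 CDKF genes above 16 had positive log2 ratios, *CDKF-4* a negative one (-0.017) with array weights, and 0 passed the test. CDKF kinases include an activator of other CDKs in Arabidopsis. *CDKF-3* had signals of 25.3, 21.1 and 23.5 in WT and of 42.9, 44.6 and 25.3 in MADS29OX leaves. MADS29OX replicate 3 lay at the top of the WT range and the other MADS29OX arrays well above it (log2 ratio of 0.65, SE 0.24, limma adjusted p = 0.0998). With 1 array left out in turn, the log2 ratio of *CDKF-3* ran from 0.50 to 0.91, still under 2-fold. The limma adjusted p ran from 0.00794, without MADS29OX replicate 3, to 0.260. *CDKF-1* had 134, 121 and 96.3 in WT and 173, 126 and 142 in MADS29OX leaves (log2 ratio of 0.33, adjusted p = 0.226), and *CDKF-4* had a log2 ratio of 0.10 (adjusted p = 0.618). The KRP genes overlapped between the groups as well. *KRP1* had 91.6, 98.9 and 83.8 in WT and 78.6, 89.6 and 124.9 in MADS29OX leaves (log2 ratio of 0.07, adjusted p = 0.808), and *KRP4* had -0.15 (adjusted p = 0.552).

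Other genes of cell division were read from a list of 56 genes named for DNA replication, retinoblastoma and MYB3R regulation, tubulins, CDK regulators, CDC proteins and growth-regulating factors. Of 54 with a probe set, 34 (63.0%) were under 16 on all arrays, against 43.9% of all genes, and 20 were tested. With limma 0 were called in either direction, against 10.1% of all genes tested. By p before adjustment (under 0.05, any fold) 3 were higher and 1 lower, against 17.0% and 21.9% of all genes tested. Of 25 DNA replication genes 18 were under 16 on all arrays, among them the helicase subunit genes *MCM2*, *MCM3*, *MCM4*, *MCM5*, *OsMCM6* and *MCM7*. *OsPCNA*, the sliding clamp of DNA polymerase, named like the *MCM* genes after its values were seen, had signals of 30.1, 25.1 and 32.6 in WT and of 36.5, 24.3 and 31.1 in MADS29OX leaves, which overlap (log2 ratio of 0.06, limma adjusted p = 0.846). The median log2 ratio was 0.14 over the 20 genes and -0.01 over all genes tested.

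*MYB3R-2* is a MYB factor known in rice to act on B-type cyclin promoters. Of the 20 tested genes of this list, it alone had an adjusted p of at most 0.05, against 26.6% of all genes tested. Its signals were 31.7, 29.3 and 32.4 in WT and 23.1, 22.3 and 17.9 in MADS29OX leaves. The groups did not overlap, and the log2 ratio was -0.57 (SE 0.12, limma adjusted p = 0.0211), under 2-fold. The retinoblastoma-related gene *OsRBR2*, whose product restrains entry into the cell cycle, had -0.23 (adjusted p = 0.237). *EL2*, a CDK inhibitor gene of rice, had signals of 33.4, 27.2 and 26.6 in WT and of 39.8, 37.6 and 69.8 in MADS29OX leaves. All MADS29OX arrays were above the WT arrays and 1 stood far above the others (log2 ratio of 0.71, SE 0.26, adjusted p = 0.101).

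Tubulins, the proteins of the tracks on which kinesins move, were mostly above 16. Of 11 with a probe set 7 were tested and 0 called, against 10.1% of all genes tested. Their log2 ratios ran from -0.18 to 0.48 with a median of 0.18, where all genes tested had -0.01 and the kinesins -0.54. Named for the highest mean signals, *TUB3*, the *TubA* gene LOC4350197 and *TUB7* had log2 ratios of 0.18, 0.41 and 0.17. By the same rule the replication protein A genes *OsRPA14* and *OsRPA32-2* and the nuclease gene *FEN1B* had -0.39, 0.13 and 0.33, *GRF11* had -0.05, and *CDC25.1* and *CDC25.2*, also known as arsenate reductases, had -0.10 and 0.20. None of these genes passed the adjusted p. Histone genes, whose transcripts accompany DNA synthesis, had summed signals over 5 genes of 1304 to 1438 in WT and of 1112 to 1595 in MADS29OX leaves, which overlap. All 5 are H2B genes. *H2B.11* had 63.5 to 83.2 in WT and 86.9 to 159.1 in MADS29OX leaves (log2 ratio of 0.69, limma adjusted p = 0.0853). The other 3 tested had negative log2 ratios, the lowest -0.21.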

How the data were processed

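The authors deposited 1 linear intensity per probe set for 57381 probe sets on each of 6 arrays, 123 of them controls, which were left out. How background, summary and normalization were done is not given in the sources used here, and no further scaling was applied. Intensities below 16 were set to 16, and the log2 values of 14238 probe sets that exceeded 16 on 1 array or more went into 1 limma 3.58.1 model (lmFit, eBayes; R 4.3.3) of group. Benjamini-Hochberg adjustment ran over all 14238. Gene names came from the platform annotation and a RefSeq gene table, read with Python 3.11.15. From the other lists 4 genes with a shared but unrelated or unsettled name were removed.

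All members above 16 on an array are named. From the cell division list, called genes are named, and per class the 3 tested genes with the highest mean, or all where fewer were tested. The members and lists were chosen with earlier results of these data known. The model was also run on simulated data in which only brighter probe sets were changed. That run does not show how well changes near the floor are detected. The number of arrays limits the precision.

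Alternatives covered the floor, scaling, filters, probe sets, spread models, the fold limit, a block for the replicate number, and each array left out in turn. The build behind the array is not named, so coordinates are not given.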

Additional observations from a re-analysis of the deposited data

How the results depend on the processing

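The count of members called higher, 0 as reported, was 1 with no floor, with quantile normalization, with median centring, with array weights and with no fold limit, and, in alternatives added after the data were seen, with a floor at 8 and with no floor over all probe sets. In each case the gene was *CYCP3-1*, with log2 fold changes from 0.99 to 1.03. The count called lower, 1 as reported, was 0 with log2 of the value plus 16, with no filter, with no floor over all probe sets and with a minimum mean of 32, which leaves *KIN4A* untested. It was 3 with no fold limit. Leaving out 1 array gave 0 to 1 members in each direction: *CYCP3-1* was called without WT replicate 1 (1.05) and without MADS29OX replicate 2 (1.08), and *KIN4A* was not called without WT replicate 3 (-0.95). By gene symbol alone, 4 kinesin genes stay as members, *KIN4A* among them. The cell division list had 1 lower gene with no fold limit, *MYB3R-2*, where 15.1% of all genes tested were lower. *CYCL1-1*, near 0 throughout, had 0.0085 with quantile normalization, 0.023 with median centring and -0.044 to 0.037 with 1 array left out. *CDKF-4* had -0.017 with array weights. With 1 array left out, *CYCH-1* ran from -0.0012 to 0.17, *KRP4* from -0.28 to 0.012, *KRP1* from -0.12 to 0.21 and *CycT1;4* from -0.18 to 0.013. None of these 5 genes with a changed sign, nor *CDKF-4*, was called in any of these settings. Replicate numbers did not pair the samples: same-numbered deviations correlated at 0.036, -0.047 and -0.15, and 1 of 6 samples correlated best with its own number. With the replicate number as a block *KIN4A* was again the 1 gene called (-1.07, adjusted p = 0.0222 from limma), and *KIN14L* had an adjusted p of 0.0670. Signals near the floor carry little information.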
